A study of Mus musculus with 7 samples.

Results

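EpCAM-positive cells of mouse mammary tumours were divided by green fluorescent protein (GFP), and the GFP+ EpCAM+ library was set against the GFP- EpCAM+ library. The contrast takes in every gene with at least 20 counts summed over these 2 libraries, which left 9241 of the 13236 genes in the count table. There were 87 genes at exactly 20 counts, just inside this limit, and 93 at 19 counts, just outside it. The tumours were grown in female BALB/c mice from 4T1-GFP cells, a GFP-labelled form of a mouse mammary carcinoma line, of which 100000 were injected into a mammary fat pad at 8 weeks of age. Tumours were taken 4 weeks later, at 12 weeks of age, and digested with collagenase A and DNase. Ter119+ erythroid and CD45+ immune cells were gated out before sorting by GFP and EpCAM, and 3' mRNA libraries were made from GFP- EpCAM+, GFP+ EpCAM+, GFP- EpCAM- and GFP+ EpCAM- cells. All 4 groups share the host strain, injected line and time point, and the labels tell them apart by the sort gates. The labels state neither the promoter that drives GFP, nor the number of mice behind a library, nor whether the libraries come from the same tumours.

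GFP is carried by the injected cells, so the gate separates cells in which the label is seen from cells in which it is not. A GFP- cell can be a host cell or an injected cell without detectable label, and the labels call all 4 groups tumour-derived. EpCAM is an adhesion molecule of epithelial cells, present on carcinoma cells and on the normal luminal and basal cells of mammary ducts. Luminal cells line the duct, carry simple keratins and make milk proteins in lactation, while basal cells lie against the basement membrane and carry keratins such as Krt5 and Krt14. The comparison therefore addresses what the GFP gate divides among cells that share the EpCAM gate.

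With 1 library in each group there is no replicate check of any difference, no p-value is given, and every interval covers counting error only. Library totals ran from 1338608 to 2384264 counts, and 3 counts correspond to 1.84 normalised CPM (counts scaled to library size) in GFP- EpCAM+ and to 1.21 CPM for GFP+ EpCAM+. Epcam, the sorted marker itself, followed its gate and stood at 413 CPM in GFP- EpCAM+, 293 in GFP+ EpCAM+, 35.7 in GFP- EpCAM- and 25.9 in GFP+ EpCAM-. Its ratio of GFP+ to GFP- within EpCAM+ cells was 0.709 (0.638 to 0.789), which met neither call. Ptprc, the CD45 gene, had 29 counts in GFP- EpCAM-, 1 in GFP- EpCAM+ and 0 in either GFP+ library. The rank correlation of CPM across genes, which are not replicates and share the depth of their libraries, was 0.965 between both GFP+ libraries, 0.907 between both EpCAM+ libraries and 0.783 between both GFP- libraries. In these bulk libraries fewer cells of a type and less RNA per cell cannot be told apart.

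The division was one-sided. A gene was called when the whole 95% counting interval of its scaled count ratio lay beyond 2-fold. By this rule 20 genes (0.216% of 9241) were higher in GFP+ EpCAM+ cells and 386 (4.18%) were lower. For 5059 genes, 54.7%, the whole interval lay inside 2-fold, and for the remaining 3776 the counts set neither. The median log2 ratio over all genes tested was 0.01. The lower genes went far past the limit: 235 had intervals wholly beyond 4-fold, 114 beyond 10-fold, and 98 had 0 counts in GFP+ EpCAM+. Of the higher genes only H19 lay wholly beyond 4-fold. The lower genes held 4.88% of the counts of GFP- EpCAM+ and 1.09% of those of GFP+ EpCAM+.

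**Figure D1:**
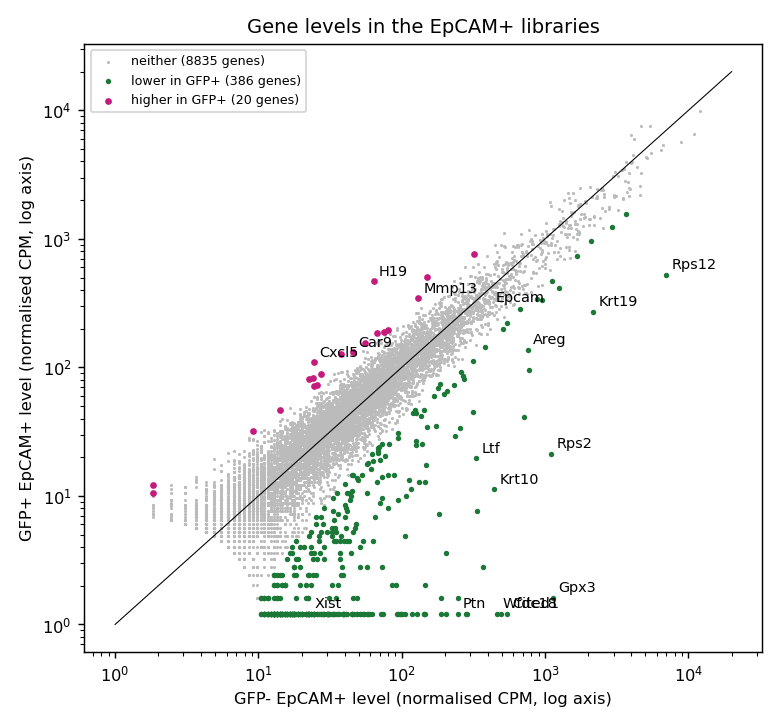
Level of each of the 9241 genes in GFP- EpCAM+ (horizontal, normalised CPM, log axis) and in GFP+ EpCAM+ (vertical, normalised CPM, log axis), 1 library each, with levels under 3 counts drawn at the 3-count limit. The 386 lower genes (green) reach down to the floor of the GFP+ library. The 20 higher genes (magenta) lie nearer to the diagonal, which marks equal levels. Median log2 ratios were 1.71 for the higher and -3.48 for the lower genes.

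H19 had the highest lower interval bound of the genes higher in GFP+ EpCAM+ cells. H19 is an imprinted long non-coding RNA transcribed from the maternal allele, abundant in the embryo and in many tumours, and the host transcript of miR-675. It had 104 counts in GFP- EpCAM+, 1162 in GFP+ EpCAM+, 786 in GFP- EpCAM- and 2317 in GFP+ EpCAM-, or 63.6 CPM in GFP- EpCAM+, 468 in GFP+ EpCAM+, 611 in GFP- EpCAM- and 1114 in GFP+ EpCAM-. Its level was 7.36-fold (6.01 to 9.08) higher in GFP+ EpCAM+ than in GFP- EpCAM+, a log2 ratio of 2.88, and GFP- EpCAM+ was the lowest of the 4 libraries. In EpCAM- cells the log2 ratio of H19 was 0.87 and met neither call. On GRCm38, H19 maps to the minus strand of chromosome 7 (142575529 to 142578143). The other imprinted genes that passed the filter, Gnas, Igf2r, Phlda2 and Mest, had log2 ratios from -0.43 to 0.34 and met neither call.

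Higher genes that encode secreted or surface proteins are given together, along with the enzyme gene Dio2. Enpp2 and Dio2 fall outside the naming rule and were added after their values were seen. Cxcl5, a chemokine that draws neutrophils, stood at 24.5 CPM in GFP- EpCAM+, 109.99 in GFP+ EpCAM+, 11.7 in GFP- EpCAM- and 172 in GFP+ EpCAM-, and was 4.49-fold (3.22 to 6.43) higher in GFP+ EpCAM+. The interstitial collagenase gene Mmp13 stood at 129.7 CPM in GFP- EpCAM+, 346 in GFP+ EpCAM+, 39.6 in GFP- EpCAM- and 195 in GFP+ EpCAM-, a ratio of 2.66 (2.29 to 3.11). Both GFP+ libraries were above both GFP- libraries for these 2 genes. Cd47, whose product signals to macrophages not to engulf the cell, had 522 counts in GFP- EpCAM+, 1898 in GFP+ EpCAM+, 671 in GFP- EpCAM- and 1693 in GFP+ EpCAM- and a ratio of 2.39 (2.17 to 2.64). Ccbe1, needed for the processing of the lymphatic growth factor VEGF-C, was 2.77-fold (2.25 to 3.44) higher. Enpp2, which encodes the enzyme that makes lysophosphatidic acid, was 3.51-fold (2.01 to 6.56) higher, and Dio2, which activates thyroid hormone, 6.58-fold (2.05 to 33.7) higher on 3 counts in GFP- EpCAM+. Notch2, a receptor, was 8.56-fold (2.14 to 74.4) higher and rests on 2 and 26 counts.

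The pH-regulating carbonic anhydrase Car9 and Ankrd37 are known targets of the hypoxia factor HIF-1. Car9 stood at 45.9 CPM in GFP- EpCAM+, 132 in GFP+ EpCAM+, 7.77 in GFP- EpCAM- and 169.6 in GFP+ EpCAM-, and was 2.87-fold (2.23 to 3.74) higher in GFP+ EpCAM+ cells. Ankrd37 stood at 24.5 CPM in GFP- EpCAM+, 71.3 in GFP+ EpCAM+, 36.5 in GFP- EpCAM- and 77.9 in GFP+ EpCAM-, a ratio of 2.91 (2.06 to 4.22). They were the 2 genes called higher among 20 hypoxia and glycolysis genes that passed the filter. The list median was 0.75, and 1 member, the lactate exporter Slc16a3, was lower (8.61-fold (2.49 to 45.8)). In this EpCAM+ contrast the rule called 0.216% of all genes upward and 4.18% downward. The glycolytic members with the largest counts met neither call: Pkm had a ratio of 1.40 (1.34 to 1.47), Ldha 0.929 (0.872 to 0.991), Tpi1 1.39 (1.29 to 1.50) and Aldoa 0.652 (0.606 to 0.701). The GFP contrast of EpCAM- cells, which shares no library with that of EpCAM+ cells, called 8 of 20 members of this list higher and 1 lower, against 5.55% higher and 14.1% lower of all its genes, with a median of 1.11.

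The promoter windows of Car9 and Ankrd37 are shown because HIF-1 is known to bind the core ACGTG. They run 5′ to 3′ from 250 bases before the annotated start to 50 after it (RefSeq, GRCm38.p6), at chr4:43506776-43507075, plus strand and chr8:45999801-46000100, minus strand. Capitals mark ACGTG on either strand.
Car9: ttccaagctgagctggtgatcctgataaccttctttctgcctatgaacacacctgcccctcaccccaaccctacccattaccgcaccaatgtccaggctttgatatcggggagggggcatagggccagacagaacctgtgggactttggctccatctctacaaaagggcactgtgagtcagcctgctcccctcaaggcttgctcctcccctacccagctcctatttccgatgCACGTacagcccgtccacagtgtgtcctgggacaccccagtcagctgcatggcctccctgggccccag
Ankrd37: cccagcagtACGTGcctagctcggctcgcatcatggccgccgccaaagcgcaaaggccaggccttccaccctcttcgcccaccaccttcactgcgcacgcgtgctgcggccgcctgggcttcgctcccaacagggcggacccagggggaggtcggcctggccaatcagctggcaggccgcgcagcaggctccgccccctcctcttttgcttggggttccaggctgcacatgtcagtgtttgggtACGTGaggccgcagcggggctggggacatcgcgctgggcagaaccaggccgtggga
Car9 held 1 match, on the opposite strand and beginning 18 bases before the start, and Ankrd37 held 2 on its own strand, beginning 241 and 6 bases before it. ACGTG was present in 19.6% of all 32851 promoter windows, in 26.0% of the 9128 windows of genes tested and in 4 of 17 windows of the higher genes. A match is a description of these letters only. H19 and Cxcl5 have no entry in the promoter table used.

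The remaining higher genes named by the rule have other roles. Arl4c, a small GTPase, was 3.38-fold (2.57 to 4.51) higher, the pseudokinase gene Peak1 3.59-fold (2.52 to 5.25), Fndc3a 3.49-fold (2.47 to 5.06), the focal adhesion gene Tns3 2.78-fold (2.21 to 3.53) and the transcription factor gene Zfhx3 3.32-fold (2.11 to 5.44). Across the 20 higher genes, GFP- EpCAM+ was the lowest of the 4 libraries for 14, and GFP+ EpCAM- was the highest for 14. The EpCAM- contrast called 6 of the 20 higher (Cxcl5, Mmp13, Ccbe1, Car9, Arl4c and D030056L22Rik) and none lower, against 5.55% and 14.1% of its 9551 genes. These 6 are 30% of the higher calls in EpCAM+ cells and 1.13% of the 530 higher calls in EpCAM- cells.

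**Figure D2:**
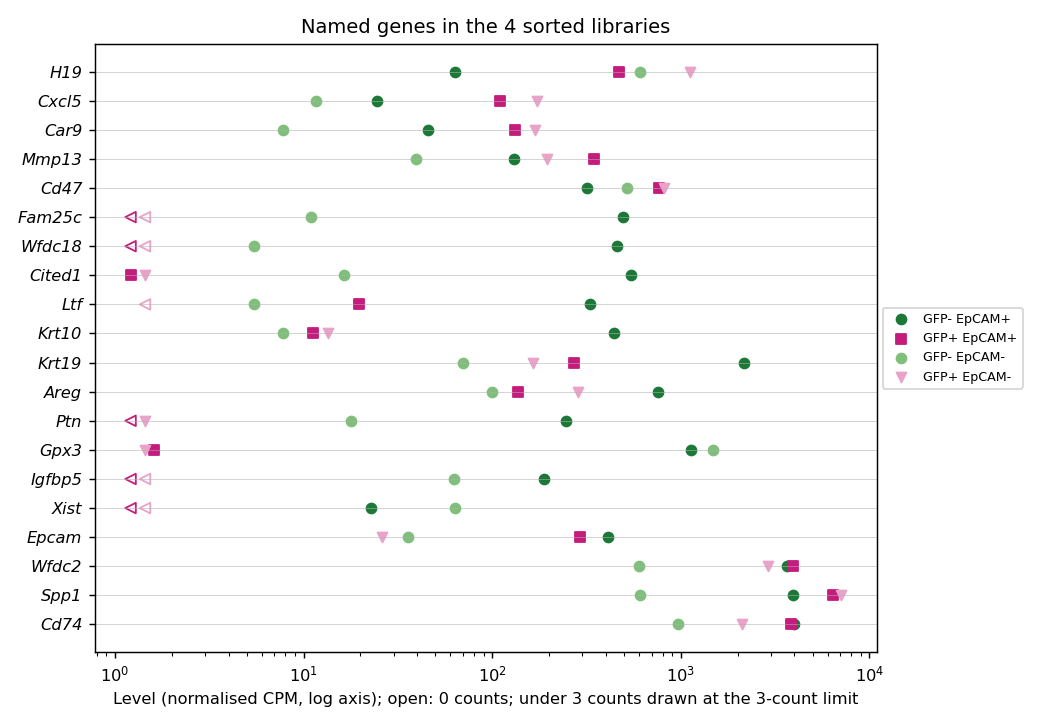
Level of 20 named genes (normalised CPM, log axis) in the 4 sorted libraries, 1 library per symbol. Open symbols mark 0 counts, and values under 3 counts are drawn at the 3-count limit. The upper 5 genes are higher in both GFP+ libraries than in GFP- EpCAM+. Fam25c to Ptn stand highest in GFP- EpCAM+, and Gpx3 and Xist in GFP- EpCAM-.

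Mammary luminal and milk genes were lower in GFP+ EpCAM+ cells. Of 20 listed, 17 were in the table and 13 passed the filter, and 10 of these 13 were lower and none higher (median log2 ratio -3.66), against 4.18% lower and a median of 0.01 over all genes. A gene at or near 0 in GFP+ EpCAM+ passed the filter only through GFP- EpCAM+, so the counts and medians of this list and of those below lean to lower values and are a description. The summed level of the list was 1587 CPM in GFP- EpCAM+, 271 in GFP+ EpCAM+, 200.4 in GFP- EpCAM- and 258 in GFP+ EpCAM-.

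Cited1, a transcriptional co-activator of mammary duct growth, had 886 counts in GFP- EpCAM+, 3 in GFP+ EpCAM+, 21 in GFP- EpCAM- and 2 in GFP+ EpCAM-, and was 449-fold (153 to 2179) lower in GFP+ EpCAM+ than in GFP- EpCAM+. Ltf, which encodes the milk protein lactoferrin, had 542 counts in GFP- EpCAM+, 49 in GFP+ EpCAM+, 7 in GFP- EpCAM- and 0 in GFP+ EpCAM-, 16.8-fold (12.5 to 22.99) lower. Both genes were high in a single library, GFP- EpCAM+. Lalba, which encodes a subunit of lactose synthase, had 76 counts there and 0 in GFP+ EpCAM+. The prolactin receptor gene Prlr had 42 and 1, and Elf5, a transcription factor of milk-secreting cells, 21 and 0. Kit, a receptor of luminal progenitors, was 97.2-fold (16.8 to 3899) lower, and it stood higher in GFP- EpCAM- (115 counts) than in GFP- EpCAM+ (64 counts). Foxa1, Aldh1a3, Btn1a1 and Plet1 complete the 10, and Lalba, Elf5, Foxa1, Aldh1a3 and Btn1a1 are named because they complete the list, after their values were seen.

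Other luminal genes met neither call. Gata3, a luminal transcription factor, had 238 counts in GFP- EpCAM+, 290 in GFP+ EpCAM+, 19 in GFP- EpCAM- and 271 in GFP+ EpCAM-, with an EpCAM+ ratio of 0.802 (0.674 to 0.956). The oestrogen receptor gene Esr1 had 30 and 24 counts in GFP- EpCAM+ and GFP+ EpCAM+, and Muc1, a surface mucin, 86 and 67. Csn1s1, a casein gene, had 0 counts in both EpCAM+ libraries.

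Wfdc18 and Fam25c, both at 0 counts in GFP+ EpCAM+, had the largest folds that are bounds. Wfdc18 encodes a small secreted protein with a whey acidic protein domain. It had 750 counts in GFP- EpCAM+, 0 in GFP+ EpCAM+, 7 in GFP- EpCAM- and 0 in GFP+ EpCAM-, and was at least 379.7-fold lower in GFP+ EpCAM+. Fam25c had 808 counts in GFP- EpCAM+, 0 in GFP+ EpCAM+, 14 in GFP- EpCAM- and 0 in GFP+ EpCAM-, at least 409-fold lower. For both genes 0 counts in GFP+ EpCAM+ allows up to 1.21 CPM, against 459 and 494 CPM in GFP- EpCAM+. The related whey acidic protein genes Wfdc2 and Slpi met neither call, with EpCAM+ ratios of 1.07 (1.04 to 1.11) and 0.980 (0.919 to 1.04) on 9758 and 2384 counts in GFP+ EpCAM+. On GRCm38 the protein-coding genes map to the plus strand of chromosome 11 (83709015 to 83711348) for Wfdc18 and, for Fam25c, to the minus strand of chromosome 14 (34351881 to 34355433).

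Their promoter windows are shown with that of the epidermal keratin gene Krt10 because all 3 genes were high in GFP- EpCAM+ alone and each window holds a TATA box motif, TATAAA, near the start. They run 5′ to 3′ at chr11:83708754-83709053, plus strand, chr14:34355344-34355643, minus strand and chr11:99389315-99389614, minus strand. Capitals mark TATAAA, searched on both strands.
Wfdc18: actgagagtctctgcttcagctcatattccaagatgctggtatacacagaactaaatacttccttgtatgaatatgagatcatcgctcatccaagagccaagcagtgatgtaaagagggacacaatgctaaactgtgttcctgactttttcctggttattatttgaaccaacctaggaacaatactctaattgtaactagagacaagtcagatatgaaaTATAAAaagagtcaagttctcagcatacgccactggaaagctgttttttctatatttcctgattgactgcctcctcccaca
Fam25c: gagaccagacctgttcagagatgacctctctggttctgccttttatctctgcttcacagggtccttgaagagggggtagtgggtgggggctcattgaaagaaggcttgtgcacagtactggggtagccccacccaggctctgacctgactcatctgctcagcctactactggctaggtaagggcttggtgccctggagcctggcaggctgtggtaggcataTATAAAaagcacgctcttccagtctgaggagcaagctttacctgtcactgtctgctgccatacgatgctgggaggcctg
Krt10: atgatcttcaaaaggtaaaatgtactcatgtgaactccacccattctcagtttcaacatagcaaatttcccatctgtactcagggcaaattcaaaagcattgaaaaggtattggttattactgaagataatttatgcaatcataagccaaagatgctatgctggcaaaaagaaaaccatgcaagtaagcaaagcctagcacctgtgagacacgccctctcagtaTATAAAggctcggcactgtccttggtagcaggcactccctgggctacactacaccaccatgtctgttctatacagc
Each match lay on the gene's own strand and began 31, 29 and 26 bases before the start. TATAAA was present in 13.6% of all windows, in 6.84% of the windows of genes tested and in 14.4% of the 320 windows of the lower genes. Each of the 3 windows held 2 CpG dinucleotides. The median was 10.5 CpG (quartiles 5 and 22) in the windows of the lower genes, 21 (13 and 29) in those of genes tested, 33 in the 17 windows of the higher genes and 7 in all windows. These genes were picked for display after their windows were read, and the shares are a description with no test.

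Epidermal differentiation genes, which mark the keratinising layers of stratified epithelium, were also lower. Of 12 listed, 9 were in the table and 8 passed the filter, and 7 were lower and none higher (median -5.46), against 4.18% of all genes. Of the 7, Dmkn, Krtdap, Krt6a, Krt1 and Krt79 were at 0 in GFP+ EpCAM+, so that they passed only through GFP- EpCAM+ and enter the median as bounds. The summed level of the list was 937 CPM in GFP- EpCAM+ and between 39.6 and 68.1 in the other 3 libraries. Krt10 had 722 counts in GFP- EpCAM+, 28 in GFP+ EpCAM+, 10 in GFP- EpCAM- and 28 in GFP+ EpCAM-, 39.2-fold (26.9 to 59.4) lower in GFP+ EpCAM+. Dmkn and Krtdap, secreted proteins of differentiating keratinocytes, had 172 and 153 counts in GFP- EpCAM+, with 0 counts each in GFP+ EpCAM+, and were at least 87.1-fold and at least 77.5-fold lower. Sbsn, their neighbour on chromosome 7, had 173 counts in GFP- EpCAM+, 12 in GFP+ EpCAM+, 5 in GFP- EpCAM- and 17 in GFP+ EpCAM-, 21.9-fold (12.2 to 43.2) lower. Krt6a had 101 counts and 0, and the cornified envelope gene Sprr1a 148 and 5. Krt16, a keratin of activated epidermis, met neither call, with 109 and 136 counts.

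Simple epithelial keratins, which pair to form the filaments of luminal cells, were lower to a smaller degree. Of 5 members that passed the filter, 3 were lower and none higher (median -1.18), against 4.18% of all genes. Krt19 had 3534 counts in GFP- EpCAM+, 675 in GFP+ EpCAM+, 90 in GFP- EpCAM- and 344 in GFP+ EpCAM-, 7.95-fold (7.32 to 8.65) lower in GFP+ EpCAM+, and Krt23 was 7.29-fold (2.73 to 24.5) lower. Krt8 had 2737 counts in GFP- EpCAM+, 1836 in GFP+ EpCAM+, 183 in GFP- EpCAM- and 1350 in GFP+ EpCAM-, 2.26-fold (2.13 to 2.40) lower, and with libraries scaled by total counts its log2 ratio was -1.05 and it met neither call. Krt18, the partner of Krt8, had 7506 counts in GFP- EpCAM+, 6394 in GFP+ EpCAM+, 622 in GFP- EpCAM- and 4127 in GFP+ EpCAM-, with a ratio of 0.561 (0.542 to 0.580), and Krt7 a ratio of 0.781 (0.744 to 0.820). All 5 had ratios under 1, and their summed level was 10313 CPM for GFP- EpCAM+ against 5047 for GFP+ EpCAM+.

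Basal and adhesion genes had lower members and medians nearer to 0. Of 9 basal genes 3 were lower and none higher, against 4.18% of all genes lower, with a median of -0.05 that was 0.08 with libraries scaled by total counts. Krt5 was 14.2-fold (7.63 to 29.4) lower, Krt15 8.55-fold (6.16 to 12.1) lower, and Krt17 went from 111 to 56 counts. Krt14, the partner of Krt5, met neither call at a ratio of 0.864 (0.811 to 0.921), and the laminin and hemidesmosome genes Lamb3 and Itgb4 had ratios of 1.15 (1.01 to 1.30) and 1.34 (1.23 to 1.47). Of 21 epithelial adhesion genes 4, or 19.05%, were lower and none higher (median -0.39). The tight junction genes Cldn7 and Tjp3 were 11.3-fold (7.79 to 16.9) and 18.99-fold (4.73 to 165) lower, and the desmosome gene Dsp was lower as well. Cldn4, another claudin, met neither call at 0.847 (0.805 to 0.892), as did Spint2 at 0.612 (0.553 to 0.677) and Lad1 at 1.44 (1.30 to 1.59).

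**Figure D3:**
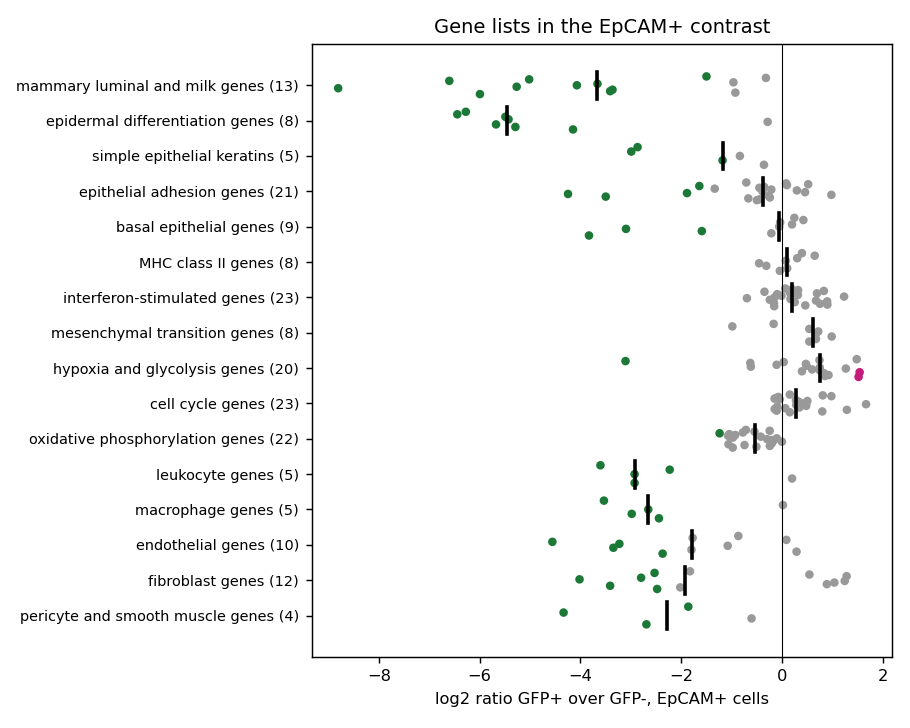
Log2 ratio of GFP+ over GFP- within EpCAM+ cells (horizontal) for the members of 16 gene lists that passed the filter, their number in brackets, 1 library per group. Points are genes (green lower, magenta higher, grey neither) and black bars are medians. Luminal and epidermal lists lie far to the left, at -3.66 and -5.46, while MHC class II, interferon-stimulated and cell cycle genes lie around 0.

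Several of the lower genes named by the rule encode secreted proteins. Gpx3, a secreted glutathione peroxidase, had 1841 counts in GFP- EpCAM+, 4 in GFP+ EpCAM+, 1915 in GFP- EpCAM- and 3 in GFP+ EpCAM-, 699-fold (273 to 2568) lower in GFP+ EpCAM+ and 1032-fold (353 to 5009) lower in GFP+ EpCAM-. It was high in both GFP- libraries and near the floor in both GFP+ libraries. Igfbp5, a binding protein of insulin-like growth factors, had 308 counts in GFP- EpCAM+, 0 in GFP+ EpCAM+, 81 in GFP- EpCAM- and 0 in GFP+ EpCAM-, and the lipid carrier gene Apod 465 counts in GFP- EpCAM+, 1 in GFP+ EpCAM+, 44 in GFP- EpCAM- and 0 in GFP+ EpCAM-. Trf, which encodes the iron carrier transferrin, had 335 counts in GFP- EpCAM+, 0 in GFP+ EpCAM+, 127 in GFP- EpCAM- and 1 in GFP+ EpCAM-, and the heparin-binding growth factor gene Ptn 401 counts in GFP- EpCAM+, 0 in GFP+ EpCAM+, 23 in GFP- EpCAM- and 1 in GFP+ EpCAM-. In EpCAM+ cells these 4 were at least 156-fold, 706-fold (126 to 27955), at least 169.6-fold and at least 203-fold lower, in the same order. All 4 stood higher in GFP- EpCAM+ than in GFP- EpCAM-, unlike Gpx3.

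Epithelial surface and protease genes completed the leading lower genes. Dmbt1, a mucosal scavenger protein gene, had 460 counts in GFP- EpCAM+, 1 in GFP+ EpCAM+, 7 in GFP- EpCAM- and 0 in GFP+ EpCAM-, 699-fold (125 to 27655) lower. The uroplakin gene Upk3a had 237 counts in GFP- EpCAM+, 0 in GFP+ EpCAM+, 8 in GFP- EpCAM- and 0 in GFP+ EpCAM-, and Tmprss2, a membrane serine protease gene, 163 counts in GFP- EpCAM+, 0 in GFP+ EpCAM+, 5 in GFP- EpCAM- and 1 in GFP+ EpCAM-. They were at least 119.99-fold and at least 82.5-fold lower. Ly6d, a surface protein gene, had 545 and 19 counts in GFP- EpCAM+ and GFP+ EpCAM+, while its relatives Ly6a, Ly6e and Ly6c1 had ratios of 1.04 (1.01 to 1.08), 0.894 (0.857 to 0.933) and 1.15 (1.08 to 1.22).

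Xist, the RNA that coats the inactive X chromosome of female cells, split with GFP in both EpCAM classes. It had 37 counts in GFP- EpCAM+, 0 in GFP+ EpCAM+, 82 in GFP- EpCAM- and 0 in GFP+ EpCAM-, at least 18.7-fold lower in GFP+ EpCAM+ and at least 44.2-fold lower in GFP+ EpCAM-. Both GFP+ libraries were at 0, which allows up to 1.21 and 1.44 CPM. In all, 78 of the 386 lower genes had 0 counts in both GFP+ libraries, against 5487 counts summed over them in GFP- EpCAM+ and 4555 in GFP- EpCAM-.

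The lower genes were also placed by their level in GFP- EpCAM-. For 243 of 386 the level in GFP- EpCAM+ was above that in GFP- EpCAM-, by at least 10-fold for 120 of them. The other 143 stood lower in GFP- EpCAM+ than in GFP- EpCAM-, at a median of 28.03% of that level (quartiles 7.65% and 56.6%). The first set held 3.96% of the counts of GFP- EpCAM+ and the other 0.920%.

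Markers of other cell types moved with the contrast. Over the lists for immune, vascular, stromal, fat, nerve and muscle cells, 124 genes were in the table, 44 passed the filter, 24 were lower in GFP+ EpCAM+ and none was higher, against 4.18% lower and 0.216% higher of all genes. Members near 0 in GFP+ EpCAM+ passed the filter mainly through GFP- EpCAM+, which sets the direction of this count. Endothelial genes had 4 of 10 lower (median -1.78), with summed levels of 508 CPM in GFP- EpCAM+, 309 in GFP+ EpCAM+, 15454 in GFP- EpCAM- and 347 in GFP+ EpCAM-. Plvap, which forms the diaphragms of endothelial pores, had 154 counts in GFP- EpCAM+, 23 in GFP+ EpCAM+, 4536 in GFP- EpCAM- and 34 in GFP+ EpCAM-. Pericyte and smooth muscle genes had 3 of 4 lower, with a sum of 163 CPM in GFP- EpCAM+ that compares with 39.9 CPM in GFP+ EpCAM+ but 4886 CPM in GFP- EpCAM-. Tagln, an actin-binding protein gene of smooth muscle, had 93 counts in GFP- EpCAM+, 7 in GFP+ EpCAM+, 892 in GFP- EpCAM- and 10 in GFP+ EpCAM-.

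Immune genes had higher summed levels in GFP- EpCAM- than in both EpCAM+ libraries. Leukocyte genes had 4 of 5 lower, against 4.18% of all genes. Their sum was 159 CPM in GFP- EpCAM+, 59.6 in GFP+ EpCAM+ and 2392 in GFP- EpCAM-. Macrophage genes had 4 of 5 lower, at 224 and 67.3 CPM, against 515 in GFP- EpCAM-. C1qa, a complement subunit made by macrophages, had 93 counts in GFP- EpCAM+, 26 in GFP+ EpCAM+, 143 in GFP- EpCAM- and 7 in GFP+ EpCAM-. Neutrophil and lymphocyte genes had no member past the filter, and their summed levels in GFP- EpCAM+ were 9.18 and 3.06 CPM. The adipocyte list had 1 of 2 lower, 117 against 39.5 CPM, with Adipoq and Plin1 at 0 in both EpCAM+ libraries.

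Fibroblast genes divided. Of 12 that passed the filter 5 were lower and none higher (median -1.92), against 4.18% lower of all genes. The summed level was 839.6 CPM in GFP- EpCAM+ but 1056 in GFP+ EpCAM+, the opposite order. Fbln2 made up 462 and 674 CPM of these sums. Col1a1, a chain of the main fibrillar collagen, had 132 counts in GFP- EpCAM+, 36 in GFP+ EpCAM+, 1979 in GFP- EpCAM- and 30 in GFP+ EpCAM-, 5.57-fold (3.83 to 8.29) lower, and Col3a1 and Col6a3 were 10.6-fold (3.17 to 55.7) and 16.2-fold (7.05 to 45.8) lower. Fbln2, Col6a1 and Col6a2 met neither call, with ratios of 1.46 (1.34 to 1.59), 2.06 (1.73 to 2.46) and 2.37 (1.79 to 3.19). Col5a2 and Lum were at 0 in both EpCAM+ libraries and Dpt and Pdpn were at 0 in GFP+ EpCAM+. Summed levels of the luminal, epidermal and basal lists in GFP- EpCAM+ were 792%, 2364% and 473% of those in GFP- EpCAM-, against 3.29% for endothelial, 8.81% for fibroblast, 6.65% for leukocyte, 43.5% for macrophage and 43.7% for Schwann cell genes. The Schwann cell share rests mainly on Sox10 and Mbp, which held 74 and 53 of the 132 list counts for GFP- EpCAM+. For GFP- EpCAM- Sox10 stood at 5 and Mbp at 52, and for GFP+ EpCAM+ at 0 and 87. The 43.7% is therefore not read as a level of Schwann cells. Sox10 is the Schwann cell list member among the 24 lower markers of other cell types. The part of stromal cells in the lower calls was not tested.

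**Figure D4:**
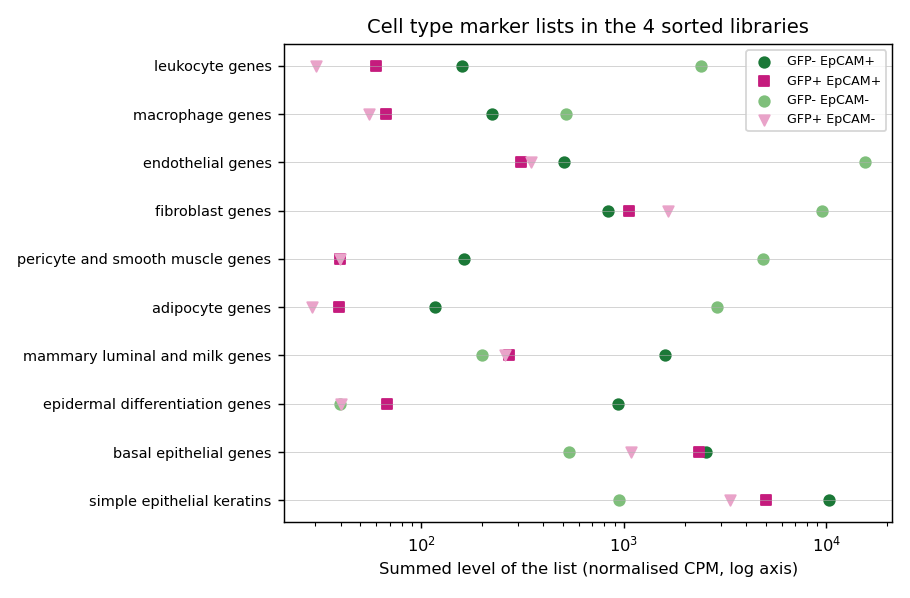
Summed level (normalised CPM, log axis) of 10 cell type marker lists in the 4 sorted libraries, 1 library per symbol. GFP- EpCAM- stands highest for immune, endothelial, fibroblast, pericyte and adipocyte genes. GFP- EpCAM+ stands highest for luminal, epidermal, basal and simple keratin genes.

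Most antigen presentation and interferon genes met neither call. The rule called 0.216% of all genes higher and 4.18% lower, so a lack of calls in these lists is close to the share over all genes. Several genes named here had intervals that excluded 1. None of 8 MHC class II genes was called (median 0.09), and Cd74, the class II invariant chain gene, had 6499 counts in GFP- EpCAM+, 9588 in GFP+ EpCAM+, 1243 in GFP- EpCAM- and 4418 in GFP+ EpCAM-, with an EpCAM+ ratio of 0.971 (0.941 to 1.003). H2-Aa and H2-Eb1 had ratios of 1.08 (1.04 to 1.11) and 0.730 (0.702 to 0.759). In EpCAM- cells 5 of 7 were higher in GFP+, against 5.55% of all genes there. Of 12 MHC class I genes 1 was lower, against 4.18% of all genes. It was the non-classical H2-T23, at 3.19-fold (2.64 to 3.87), and B2m, the light chain gene, had a ratio of 0.767 (0.748 to 0.788). None of 23 interferon-stimulated genes was called (median 0.20), with ratios of 1.62 (1.51 to 1.74) for the guanylate-binding protein gene Gbp2 and 0.786 (0.732 to 0.845) for the chemokine gene Cxcl10. Ifi44, at 2.35 (1.90 to 2.93), was called higher with libraries scaled by total counts, at a log2 ratio of 1.36.

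Most invasion, proliferation and inflammation genes also met neither call, but many of those named here had intervals wholly above 1. Over all genes 0.216% were higher and 4.18% lower. None of 8 mesenchymal transition genes was called, while their median was 0.61 against 0.01 over all genes. Twist1 and Snai1 had log2 ratios of 0.99 and 0.67, and Tgfbi and Sparc of -0.98 and -0.16. The intermediate filament gene Vim had 6767 counts in GFP- EpCAM+, 14979 in GFP+ EpCAM+, 11666 in GFP- EpCAM- and 18028 in GFP+ EpCAM-, a ratio of 1.46 (1.42 to 1.50), and S100a4, Fn1 and Axl had ratios of 1.46 (1.39 to 1.53), 1.59 (1.52 to 1.67) and 1.65 (1.46 to 1.86). None of 23 cell cycle genes was called (median 0.28), with Top2a at 1.74 (1.51 to 2.02) and Ccnb1 at 2.44 (1.79 to 3.39). Of 24 inflammatory genes Cxcl5 was higher and 3 were lower (median 0.16), among them Il6 (9.87-fold (4.15 to 28.5)) and Il1b (4.32-fold (2.52 to 7.71)). Both of these stood higher in GFP- EpCAM- than in GFP- EpCAM+, at 861 against 39 counts for Il6 and 1257 against 54 for Il1b. The neutrophil chemokine gene Cxcl1, at 1.49 (1.41 to 1.56), and Lcn2, an iron-binding lipocalin gene, at 0.910 (0.857 to 0.967), met neither call. Of 14 matrix protease genes Mmp13 was higher and the inhibitor gene Timp3 lower (28.9-fold (7.46 to 247)), and Mmp9, a gelatinase gene, had a ratio of 1.27 (1.21 to 1.34). The osteopontin gene Spp1 had 6444 counts in GFP- EpCAM+, 15966 in GFP+ EpCAM+, 786 in GFP- EpCAM- and 14718 in GFP+ EpCAM-, a ratio of 1.63 (1.58 to 1.68).

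Most growth, metabolism and stress lists had few or no called members, beside 0.216% higher and 4.18% lower of all genes. The EGF family and p53 target lists, which are short, each had 20% of their tested members lower. Of 5 EGF family genes Areg, a ligand made by luminal cells, was lower: it had 1234 counts in GFP- EpCAM+, 340 in GFP+ EpCAM+, 129 in GFP- EpCAM- and 592 in GFP+ EpCAM-, 5.51-fold (4.88 to 6.23) lower in GFP+ EpCAM+. Hbegf, another ligand, met neither call at 1.98 (1.82 to 2.16), as did the receptor gene Erbb2 at 0.922 (0.654 to 1.31). Of 22 oxidative phosphorylation genes Cox6c was lower (2.36-fold (2.14 to 2.59)) and the list median was -0.53. Of 13 cholesterol synthesis genes none was called (median 0.50), nor of 16 endoplasmic reticulum stress genes (-0.12, or 0.0088 with total counts) or 14 antioxidant genes (-0.11, or 0.02 with total counts). Of 18 immediate early genes, which respond to dissociation, Nr4a1 was lower (2.84-fold (2.61 to 3.10)), and Fos and Jun had ratios of 0.626 (0.604 to 0.648) and 0.684 (0.649 to 0.721). The cell cycle inhibitor gene Cdkn1a, a p53 target, was 3.22-fold (2.65 to 3.92) lower, with Mdm2 at 1.60 (1.24 to 2.08).

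Chaperone and ribosomal protein genes carried counts that near-identical copies may share. Of 12 cytosolic chaperone genes 4 were lower and none higher (median -0.74), against 4.18% lower of all genes. Hspa1a had 599 counts in GFP- EpCAM+, 7 in GFP+ EpCAM+, 395 in GFP- EpCAM- and 7 in GFP+ EpCAM-, while its near-identical copy Hspa1b had 1428 counts in GFP- EpCAM+, 848 in GFP+ EpCAM+, 400 in GFP- EpCAM- and 686 in GFP+ EpCAM-, so the Hspa1a fold of 129.97-fold (62.7 to 325) lower is uncertain. The small heat shock protein gene Hspb1 had 335 counts in GFP- EpCAM+, 9 in GFP+ EpCAM+, 385 in GFP- EpCAM- and 22 in GFP+ EpCAM-, 56.5-fold (29.4 to 125) lower. Ribosomal protein genes took 14.2% of the counts of GFP- EpCAM+ and 10.3% of those of GFP+ EpCAM+. Of 76 tested 2 (2.63%) were higher and 8 (10.5%) lower, against 0.216% and 4.18% of all genes (list median -0.55). Rps2 had 1806 counts in GFP- EpCAM+, 53 in GFP+ EpCAM+, 2277 in GFP- EpCAM- and 3920 in GFP+ EpCAM-, and Rps12 11430 counts in GFP- EpCAM+, 1308 in GFP+ EpCAM+, 3119 in GFP- EpCAM- and 1710 in GFP+ EpCAM-, and both have processed pseudogenes that may share reads. Rpl7a and Rpl39 were higher, at 3.32-fold (2.90 to 3.82) and 3.22-fold (2.33 to 4.54), with the same doubt, and Rpl39 lost its call with libraries thinned to equal depth.

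The GFP contrast of EpCAM- cells gives the same measure in a separate pair of libraries. It called 530 genes higher (5.55% of 9551) and 1346 lower (14.1%). Of the 386 lower genes of EpCAM+ cells, 231 had enough counts there, of which 166 were also lower, 3 were higher and 62 met neither call. However, 120 of the 386 had 0 or 1 count in each GFP+ library. Such a gene passes the filter of either contrast only through a GFP- library, which sets its direction. The overlaps of lower calls are therefore a description. The 166 are 43.01% of the lower calls in EpCAM+ cells and 12.3% of those in EpCAM- cells. Fam25c, Wfdc18, Ltf, Dmbt1 and Upk3a were not tested there, with 14 or fewer counts in GFP- EpCAM- against 0 in GFP+ EpCAM-, and Krt10, with 10 and 28, met neither call. Read the other way, 524 of the 530 genes higher in GFP+ EpCAM- were tested in EpCAM+ cells. There 6 were higher (1.15%), 3 lower (0.573%) and 358 (68.3%) had intervals wholly inside 2-fold. Over all genes tested in EpCAM+ cells these shares were 0.216%, 4.18% and 54.7%. The median log2 ratio of the 530 genes was 2.11 in EpCAM- cells. In EpCAM+ cells that of the 524 tested was 0.37 (quartiles 0.08 and 0.68). Of 1346 genes lower in GFP+ EpCAM-, 670 were tested in EpCAM+ cells. Of these 166 (24.8%) were lower, against 4.18% of all genes, and the median of the 670 was -0.62.

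**Figure D5:**
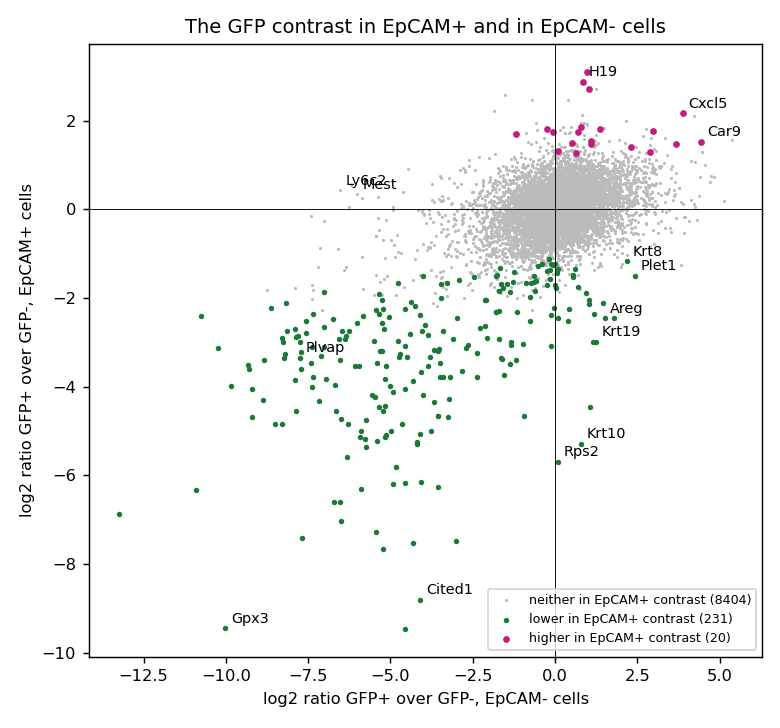
Log2 ratio of GFP+ over GFP- in EpCAM- cells (horizontal) and in EpCAM+ cells (vertical) for genes tested in both, 1 library per group in each contrast. Calls in EpCAM+ cells are coloured (green lower, magenta higher). Gpx3 is low in both contrasts, Krt10 and Krt19 only in the vertical one, and Areg, Plet1 and Krt8 lie in opposite directions. Mest and Ly6c2 are low on the horizontal axis alone.

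The GFP ratios were compared directly as the ratio of the EpCAM+ to the EpCAM- GFP ratio, for 9496 genes with at least 3 counts in each library. Its counting interval lay wholly above 2-fold for 429 genes (4.52%) and wholly below for 410 (4.32%). Of the 429, 357 were called lower in EpCAM- cells and 4 higher in EpCAM+ cells. Of the 410, 272 were called higher in EpCAM- cells and 34 lower in EpCAM+ cells. Most of the differences came with calls in EpCAM- cells, where 19.6% of genes were called either way, against 4.39% in EpCAM+ cells. The limit of 3 counts also left out the 98 lower genes at 0 counts in GFP+ EpCAM+. These shares and this limit bear on where the differences fell, so no conclusion is drawn from it.

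Epithelial genes led the downward differences. The ratio of ratios was 0.0147 (0.00653 to 0.0333) for Krt10, 0.0217 (0.00683 to 0.0690) for Sbsn and 0.0532 (0.0416 to 0.0680) for Krt19. Areg (0.0639 (0.0510 to 0.0800)), Plet1 (0.0653 (0.0422 to 0.101)) and Krt8 (0.0968 (0.0820 to 0.114)) were lower in GFP+ within EpCAM+ cells and higher in GFP+ within EpCAM- cells. Plet1, a surface protein gene of luminal progenitors, had 426 counts in GFP- EpCAM+, 229 in GFP+ EpCAM+, 26 in GFP- EpCAM- and 228 in GFP+ EpCAM-. Areg was 2.84-fold (2.34 to 3.46) higher in GFP+ EpCAM- than in GFP- EpCAM-, Plet1 5.42-fold (3.61 to 8.48) and Krt8 4.56-fold (3.91 to 5.35). Sox9, a transcription factor gene of progenitors, and the stromelysin gene Mmp3 had ratios of ratios of 0.0601 (0.0327 to 0.110) and 0.0572 (0.0327 to 0.100), and both met neither call in EpCAM+ cells.

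Genes abundant in GFP- EpCAM- led the upward differences. Rarres2, which encodes the chemoattractant chemerin, had 11 counts in GFP- EpCAM+, 15 in GFP+ EpCAM+, 631 in GFP- EpCAM- and 6 in GFP+ EpCAM-, and the chemokine gene Ccl6 75 counts in GFP- EpCAM+, 13 in GFP+ EpCAM+, 2233 in GFP- EpCAM- and 3 in GFP+ EpCAM-. The myeloid genes Lilrb4a, Irg1 and Il1b, the monocyte gene Ly6c2 and the imprinted gene Mest also stood highest in GFP- EpCAM-. Ly6c2 had 80 counts in GFP- EpCAM+, 163 in GFP+ EpCAM+, 227 in GFP- EpCAM- and 4 in GFP+ EpCAM-, with ratios near 1 in EpCAM+ cells (1.34 (1.02 to 1.78)), and Mest 14 counts in GFP- EpCAM+, 27 in GFP+ EpCAM+, 402 in GFP- EpCAM- and 10 in GFP+ EpCAM-. Lilrb4a and Lilr4b are close paralogs and their counts may be shared.

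In a separate table, scaled on its own, Wfdc18 and Fam25c had 2 and 3 counts in the normal mammary fat pad stroma of mice 8 weeks old. Both had 0 in the sorts labelled as podoplanin-positive and podoplanin-negative fibroblasts of 4T1 tumours. Cited1 had 21, 1 and 0 counts there in the same order, Krt10 17, 18 and 25, and Areg 17, 0 and 112. H19 had 153, 76 and 2165, and Gpx3 4609, 1631 and 66. Wfdc18, Fam25c and Cited1 were thus at 0 or 1 count in the podoplanin sorts, and Gpx3 was high in the fat pad stroma and the podoplanin-positive fibroblasts. The fibroblast list summed to 56660 CPM in fat pad stroma, 94264 in podoplanin-positive and 981 in podoplanin-negative cells. Simple epithelial keratins summed to 190, 127 and 4368 CPM in the same order. The podoplanin-negative values, such as those of H19 and Areg, are therefore not read as fibroblast values. These libraries held 1161172, 436051 and 2590144 counts in the same order, so the raw counts do not rank them. The 0 or 1 count in podoplanin-positive fibroblasts comes from the shallowest of them. No ratio was taken across tables.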

How the data were processed

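RNA of sorted tumour cells was measured by 3' mRNA sequencing. The deposited tables hold counts per gene symbol that are whole numbers, not normalised by the authors, as seen in the values. Per the submitters' processing notes, reads were handled with STAR, HTSeq, cutadapt, bcl2fastq and DESeq2 on mm10, and neither notes nor labels give the settings. Per the labels, the second read held a molecular identifier. Whether duplicates were collapsed is not given, so counts may hold amplification duplicates, and how shared or antisense reads were treated is not given either.

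The 21 names turned into dates by spreadsheet software were left out. Counts were scaled by TMM effective library sizes of all 4 libraries of the table (edgeR 4.0.16, R 4.3.3), and CPM uses these sizes. Ratios carry exact 95% Clopper-Pearson intervals of the conditional binomial (Python 3.11.15 with scipy 1.17.1). Where 1 library had 0 counts, 3 took their place and the ratio is a bound without the other library's counting error, which the call does include. Pairs with 3 counts or fewer in both libraries got no ratio. Such bounds enter the list medians. The ratio of ratios has a normal-approximation counting interval.

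The genes, lists and rules were chosen with earlier results of these data known. The text names the 12 highest and 12 lowest genes by the interval bound nearest to 1, without predicted, clone-named and ribosomal protein genes, up to 4 members of a described list by counts and 2 more by ratio in each direction, up to 8 genes by the ratio of ratios each way, and the sort markers. The settings varied were the scaling (size factors from DESeq2 1.42.0, total counts, or TMM from the 2 compared libraries), leaving out ribosomal protein genes, a filter of at least 100 counts or none, a 4-fold rule and libraries thinned to 1338608 counts. The method was tested on simulated counts. Some list members enter the counts but are not reported here by name. Positions come from GENCODE M21 on GRCm38, to which 96.6% of names were matched, and promoters from RefSeq on GRCm38.p6; 15 of the 20 higher and 251 of the 386 lower genes had a window.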

Additional observations from a re-analysis of the deposited data

Results flagged for a closer look

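Areg, Krt8 and Plet1 were called lower in GFP+ than in GFP- cells within EpCAM+ cells and higher within EpCAM- cells, with EpCAM+ log2 ratios of -2.46, -1.18 and -1.50 and EpCAM- log2 ratios of 1.51, 2.19 and 2.44. Each direction rests on 1 library per group, and the difference was not tested across samples.

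Rows whose names had been turned into dates held 2683 counts for GFP- EpCAM+ and 4381 for GFP+ EpCAM+, between 0.156% and 0.183% of each library. They name no gene and entered no comparison.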

How the results depend on the processing

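Counts of calls stayed within 1.5 times the reported ones with DESeq2 size factors, TMM from the 2 compared libraries, ribosomal protein genes left out and libraries thinned. With total counts 32 genes were higher in GFP+ EpCAM+ against 20, and the median log2 ratio of all genes moved from 0.01 to 0.14. With at least 100 counts 116 genes were lower in GFP+ EpCAM+, 635 lower in GFP+ EpCAM- and 199 higher by the ratio of ratios, from fewer genes tested, and with no count filter 600 were lower in GFP+ EpCAM+. By a 4-fold rule 1 gene was higher and 235 lower in GFP+ EpCAM+, 97 higher in GFP+ EpCAM-, and 150 higher and 56 lower by the ratio of ratios. With at least 100 counts list medians turned to 0.20 for leukocyte, 0.79 for fibroblast and 0.11 for Schwann cell genes, as few members were left; the Ly6 median turned to -0.050 with no filter and the skeletal muscle median to 1.31 when thinned, and the cause was not tested. With total counts the medians of basal, endoplasmic reticulum stress, antioxidant and whey acidic protein genes, all just under 0 as reported, turned to 0.08, 0.0088, 0.02 and 0.10, and other medians near 0, of imprinted, complement and p53 target genes, also crossed 0 under a filter or thinning. Single genes were followed for 260 genes only. Of these no called gene changed sign, and 19 uncalled genes near 0 did. Among the 19, the log2 ratios of Ldha, Cd74, Slpi and Erbb2 turned from -0.11, -0.04, -0.03 and -0.12 to 0.02, 0.09, 0.10 and 0.01 with total counts. Igf2r turned to -0.03 when thinned. Of the same 260, Rgs5, Krt8 and Cox6c lost their call and Ifi44 gained one with total counts. Thinning took the call from Tyrobp, Fcer1g, C1qc, Pf4, Postn and Rpl39 and gave it to Cox4i1. The shared higher genes were 16 of 20 and the shared lower genes 293 of 386 when thinned. No paired analysis was possible because each group held 1 library, and leaving out a replicate could not be done for the same reason. Depth limits a gene at 0 counts to 1.21 CPM for GFP+ EpCAM+ and 1.84 for GFP- EpCAM+, for counting error only.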
